A study of Mus musculus with 9 samples.

Results

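Imprinted genes were followed through 9 single-colour whole mouse genome arrays, 3 for each of 3 groups of cells. Probes were matched by gene symbol alone. The set comprised 40 named genes, chosen with earlier results of these data known. Of these, 37 had a probe carrying their symbol, with 74 probes in all, out of 27745 gene names and 41174 probes on the array. Kcnq1ot1, Meg3 and Rtl1 had no probe under these symbols. After a filter on dim probes, 36 genes and 67 probes were tested, out of 22808 genes and 32967 probes. Mkrn3 stayed near background on every array and was not tested.

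The first 2 groups, iPax3 and iPax7, were mononucleated cells re-isolated from the tibialis anterior muscle, for which the labels give the strain NSG/NSGmdx4cv. The series title describes progenitors made from pluripotent stem cells that had engrafted in vivo, and the group names carry those of the transcription factors Pax3 and Pax7. The third group was adult satellite cells, which are the stem cells that reside in muscle, from the tibialis anterior of the Pax7-ZsGreen strain. All samples were labelled 3 months old, and each held 1500 cells, sorted from 3 mice per line in 3 independent experiments and amplified before labelling, so the p-values measure the spread between such amplified pools. Strain, slide and day of scanning differed between the re-isolated and the satellite samples, and these cannot be told apart from the cell source. Each satellite sample was on its own slide, and satellite replicate 1 was scanned on another day than satellite replicates 2 and 3.

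Genomic imprinting leaves only the maternal or the paternal copy of a gene active in all or some tissues. Imprinted genes lie in clusters governed by control regions whose DNA methylation is laid down in the egg or sperm, and many of them act on growth, on placental transport and on the quiescence of stem cells. Arrays of this kind read the summed RNA of both alleles, so which allele was active, and whether an imprint was kept, was not measured here. In such cell pools, fewer cells of a type and less RNA per cell cannot be told apart.

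A level below is the log2 signal of a probe relative to the 75th percentile of its array. A difference is between group means of such levels, with the standard error of the limma fit after the sign ±. A gene was called when at least 1 of its probes had a Benjamini-Hochberg adjusted p under 0.05 over all 32967 probes. Where a single probe stands for a gene, it is the one with the highest mean level, called its leading probe. Levels of different probes are not compared with each other.

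Few members passed the test, and the set as a whole showed no common direction. For iPax3 against satellite cells, 0 of the 36 members were called higher and 1, Slc22a3, was called lower, where 0.434% and 0.0789% of all genes were called higher and lower. For iPax7 against satellite cells, Sgce was called higher and Slc22a3 lower, where the shares of all genes were 0.5% and 0.0833%. With both re-isolated groups averaged, the same 2 members were called, beside 0.829% of all genes higher and 0.189% lower. The comparisons share the satellite arrays, so they are not independent of each other. The Slc22a3 probe passed the filter on dim probes only through the satellite arrays. Its direction was thereby fixed beforehand, and its call is no support for a difference. The called Sgce probe was well above background on satellite replicate 1 alone among the satellite arrays. It passed the filter only with the re-isolated arrays, so its call is no firm support either.

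By the leading probe, the median difference of the 36 members was -0.04 for iPax3 and 0.21 for iPax7, where the medians over all 22808 genes were -0.18 and -0.15. In these comparisons 18 and 19 of the 36 members lay above 0. At an unadjusted p under 0.05, 3 members were higher and 1 lower for iPax3, beside 6.43% and 4.93% of all genes. For iPax7, 4 were higher and 2 lower, beside 6.41% and 4.96%. For both groups together, 5 were higher and 1 lower, beside 7.61% and 6.42%. Members expressed from the paternal allele had a median of 0.38 for iPax3 and 1.06 for iPax7 over 17 tested genes, and those expressed from the maternal allele -0.24 and -0.31 over 17; whether these classes differ was not tested.

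**Figure D1:**
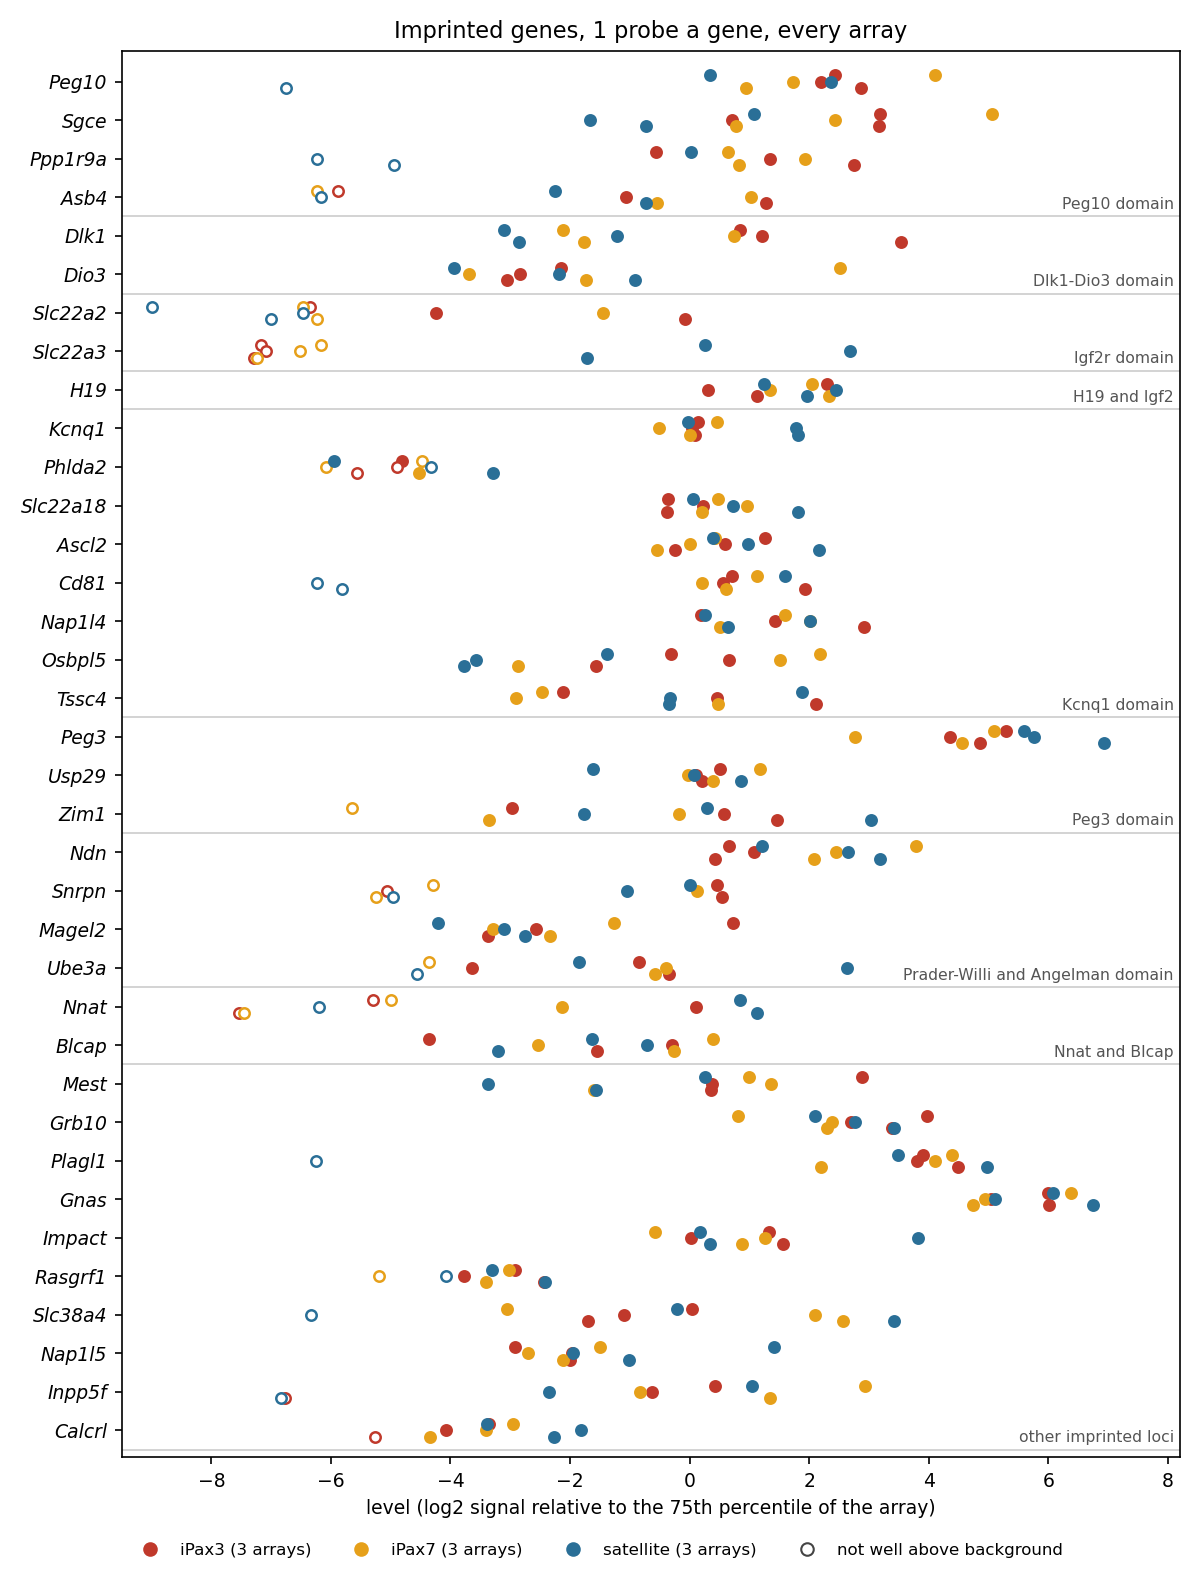
Levels of the 36 tested imprinted genes on each of the 9 arrays, by the leading probe of each gene. The horizontal axis is the log2 signal relative to its array's 75th percentile, each point is an array, open points were not well above background, and genes are grouped by imprinted domain. The Slc22a3 points of the 6 re-isolated arrays are all open and lie below the 3 satellite points, while most other genes have overlapping groups.

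Detection on single arrays bears on many of these probes. Of the 67 tested member probes, 3 were not well above background on satellite replicate 1, against 23 and 20 on satellite replicates 2 and 3. On the re-isolated arrays the number was between 5 and 10, apart from 22 on iPax7 replicate 1. On the satellite arrays the shares of all tested probes ran alike, with 5.93%, 31.02% and 26.18%, beside 4.48%, 34.33% and 29.85% of the member probes. The widest gap was on iPax7 replicate 2, with 16.57% of all tested probes and 7.46% of the member probes. In all, 32 member probes passed this flag on every array, and 12 were above it on satellite replicate 1 alone among the satellite arrays. Without satellite replicate 1, 6 members were called for iPax3, 4 higher (Cd81, Grb10, Ppp1r9a and Sgce) and 2 lower (Slc22a3 and Usp29). For iPax7, 5 were called, those other than Usp29, 4 higher and 1 lower. The calls over all genes rose from 117 to 586 for iPax3 and from 133 to 647 for iPax7, with 22754 genes in these fits. For the 4 members called higher, those fits left no satellite array well above background by the probes concerned. Their direction was thereby fixed, and these calls are no support for a difference. Satellite replicate 1 was the only array of its scan day, so the sample, its slide and that day cannot be told apart.

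The Igf2r domain held the member called in every comparison with satellite cells. Slc22a3 encodes an organic cation transporter of the plasma membrane, and its imprinting is best known from the placenta. Its only probe, A_52_P527822 (mm8, chr17:12263864-12263923, minus strand), read 0.26, 2.69 and -1.71 in the satellite samples. It read -7.17, -7.08 and -7.29 in the iPax3 samples and -6.16, -6.52 and -7.24 in the iPax7 samples, none of them well above background. The groups did not overlap, and the spread among the satellite arrays was far wider than that among the re-isolated ones.

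In the processed signal, Slc22a3 was therefore at least 49.2-fold lower in iPax3 and at least 33.3-fold lower in iPax7 cells. These bounds set the satellite mean against the dimmer group raised, on each array, to the dimmest signal still flagged well above background there. Without satellite replicate 2 they fell to at least 22.4-fold and 15.1-fold, and without satellite replicate 3 they were at least 103-fold and 69.5-fold. The measured differences were -7.59 ± 1.07 (adjusted p = 0.0237) and -7.05 ± 1.07 (adjusted p = 0.0280), and -7.32 ± 0.93 (adjusted p = 0.00993) for both groups together. The probe passed the filter on dim probes only through the satellite arrays, so it had to differ. With another background correction (normexp), the differences were -3.69 and -3.63, which is less than the bounds, and neither passed (adjusted p = 0.0747 for iPax3).

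The call of Slc22a3 for both groups together held whichever array was left out, which adds no support since the filter had fixed its direction. For iPax3 it was lost in 5 of the 9 fits that each left out 1 array, with adjusted p = 0.135 without iPax3 replicate 3 and between 0.0506 and 0.115 without iPax3 replicates 1 or 2, iPax7 replicate 3 or satellite replicate 2. For iPax7 it held in 2 of the 9, those without satellite replicates 1 or 3. With slide as a random block the iPax3 and iPax7 calls were lost (adjusted p = 0.0969 and 0.0733), and with scan day as a random block those and the call for both groups (adjusted p = 0.0969, 0.113 and 0.0625).

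Slc22a2, a neighbouring cation transporter gene of the same domain, was dim throughout. Its probe A_51_P161308 read -6.36, -4.25 and -0.07 in iPax3, -6.47, -1.45 and -6.23 in iPax7 and -9.0, -6.46 and -7.01 in satellite samples. It was well above background on 2 iPax3 arrays, 1 iPax7 array and no satellite array. The iPax3 arrays lay above the satellite ones without overlap, and the difference of 3.93 ± 1.82, at least 3.08-fold, did not pass (adjusted p = 0.436). Leaving out iPax3 replicate 3 removed this bound, and it was at least 1.80-fold without satellite replicate 1 and at least 8.12-fold without iPax3 replicate 1. The difference was between 0.83 and 4.54 over the other alternative settings. Like Slc22a3, this probe passed the filter only through the arrays where it is high, so its sign and lack of overlap are no result of the test.

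In the Peg10 domain all 4 members, Peg10, Sgce, Ppp1r9a and Asb4, had leading-probe differences above 0 in both comparisons with satellite cells, and Sgce was the only one called. Of all genes, 45.32% lay above 0 for iPax3 and 45.98% for iPax7. The median over the 4 was 3.32 for iPax3 and 3.40 for iPax7, beside -0.18 and -0.15 over all genes. Peg10, Ppp1r9a and Asb4 each had a satellite array not well above background. Without overlap, 0 of the 4 lay above for iPax3 and 1, Ppp1r9a, for iPax7. Peg10 read between 0.94 and 4.10 on the re-isolated arrays and 0.34, 2.37 and -6.76 in satellite samples, the last not well above background. The Peg10 difference for both groups together was 3.73, and as low as 1.03 with 1 array left out. Asb4 differed by 1.16 for iPax3 and 1.13 for iPax7, with overlapping groups. Sgce encodes epsilon-sarcoglycan, a membrane glycoprotein of the dystrophin-associated complex, and is expressed from the paternal allele. Its probe A_52_P27864 matches a spliced transcript, since its 60 bases span 2441 bases of the genome (mm8, chr6:4641640-4644080, minus strand). It is shown, 5′ to 3′ in lower case, because the only higher call of the set rests on it.
Sgce A_52_P27864: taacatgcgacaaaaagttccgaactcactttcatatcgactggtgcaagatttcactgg

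Sgce by this probe read 3.06, 0.72 and 2.27 in iPax3, 3.55, 2.88 and 2.88 in iPax7 and -1.81, -6.18 and -6.25 in satellite samples. All 6 re-isolated arrays lay above the satellite arrays, of which only replicate 1 was well above background. The probe therefore reached the 3 arrays of the filter only with the re-isolated arrays, where it is high. The filter favoured its direction, so its call and lack of overlap are no firm support for a difference. The difference was 7.85 ± 1.25 for iPax7 (adjusted p = 0.0356) and 7.31 ± 1.08 for both groups together (adjusted p = 0.0206). For iPax3 it was 6.77 ± 1.25 and did not pass (adjusted p = 0.0706). The iPax7 call held in 1 of the 9 fits that left out an array, that without satellite replicate 1 (adjusted p = 0.00507). That fit left no satellite array well above background for this probe. In the others the adjusted p was between 0.0584 and 0.133.

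For both groups together the Sgce call held in 4 of these 9 fits. It was lost without iPax3 replicates 1 or 3, iPax7 replicate 2 or satellite replicates 2 or 3, with adjusted p between 0.0541 and 0.101. With slide or scan day as a random block, neither the iPax7 call of Sgce (adjusted p = 0.0946 and 0.113) nor that for both groups (adjusted p = 0.101 and 0.0968) was kept.

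The leading Sgce probe, A_51_P311137 (chr6:4624457-4624516), was well above background on all 9 arrays and showed a smaller difference. It read 3.18, 0.70 and 3.16 in iPax3, 5.07, 2.44 and 0.78 in iPax7 and 1.09, -1.66 and -0.73 in satellite samples. Here satellite replicate 1 overlapped both re-isolated groups. The differences of 2.79 ± 1.29 for iPax3 and 3.20 ± 1.29 for iPax7 did not pass (adjusted p = 0.434 and 0.391). The probes of Sgce therefore shared a direction and differed in size by over 3 log2 units.

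Ppp1r9a, which encodes the actin-binding protein neurabin, had 6 probes, of which 5 were tested, all with differences above 0 and none called. One of these, A_52_P167843, was well above background on 2 iPax3 arrays, 1 iPax7 array and no satellite array. It passed the filter only through the arrays where it is high, so its sign is no result of the test. Its leading probe, A_52_P159490, read -0.56, 1.35 and 2.75 in iPax3, 0.65, 1.93 and 0.82 in iPax7 and 0.02, -6.23 and -4.94 in satellite samples. Only satellite replicate 1 was well above background in its group, and it overlapped the iPax3 arrays but not the iPax7 ones. The differences were 4.90 ± 1.56 and 4.85 ± 1.56 (adjusted p = 0.270 and 0.291).

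A further Ppp1r9a probe, A_51_P453303, read 1.06, 1.66 and 1.46 in iPax3, -6.29, 1.13 and -0.33 in iPax7 and -4.59, -6.25 and -6.72 in satellite samples. The iPax3 difference of 7.25 ± 1.68 missed the threshold (adjusted p = 0.134). Only satellite replicate 1 was well above background in its group by this probe too. The remaining 3 tested probes of the gene differed by between 0.86 and 3.00 for iPax3 and between 1.17 and 2.30 for iPax7. The highest of each was that of A_52_P167843. Without satellite replicate 1, Ppp1r9a was called in all of the comparisons with satellite cells. By both probes described, no satellite array well above background was then left, so these calls are no support for a difference. Ppp1r9a was also called without iPax7 replicate 1, for iPax3 and for both groups together.

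**Figure D2:**
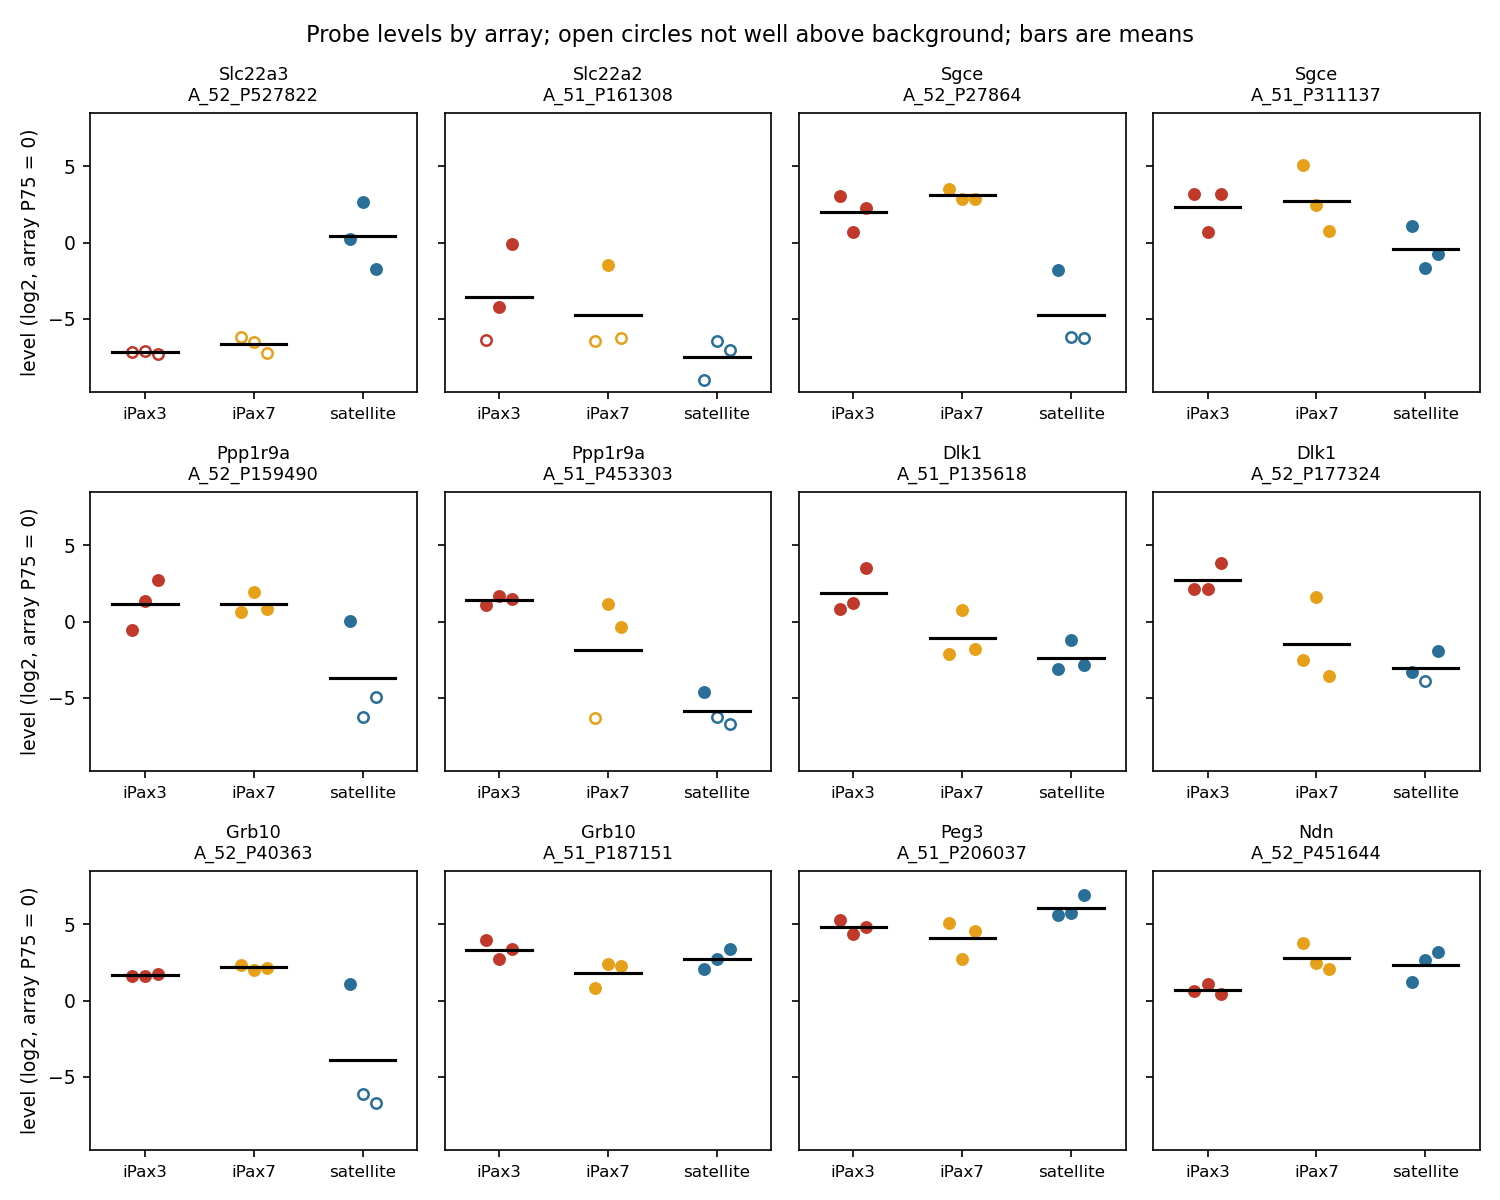
Levels of 12 probes on each array, by group; the vertical axis is the log2 signal relative to its array's 75th percentile, each point is an array, open points were not well above background and bars are means of 3 arrays. The low satellite points of Sgce A_52_P27864, Ppp1r9a A_52_P159490 and Grb10 A_52_P40363 are open for satellite replicates 2 and 3, while satellite replicate 1, at -1.81, 0.02 and 1.1, was well above background.

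Dlk1 read higher on every iPax3 array than on any other array, although no difference passed the test. It encodes a transmembrane protein related to the Notch ligands, is expressed from the paternal allele of the Dlk1-Dio3 domain, and is known from muscle development and regeneration. The leading probe, A_51_P135618 (mm8, chr12:109908264-109908323), read 0.84, 1.22 and 3.53 in iPax3, -2.11, 0.75 and -1.76 in iPax7 and -3.11, -1.22 and -2.85 in satellite samples. The iPax3 arrays lay above every other array, and the iPax7 arrays overlapped the satellite ones. Its second probe is shown because it repeats this order at a neighbouring position (chr12:109908025-109908084, plus strand).
Dlk1 A_52_P177324: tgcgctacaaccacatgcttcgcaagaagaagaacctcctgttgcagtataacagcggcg

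By A_52_P177324, Dlk1 read 2.17, 2.15 and 3.87 in iPax3, -2.48, 1.61 and -3.55 in iPax7 and -3.32, -3.91 and -1.89 in satellite samples. Again the iPax3 arrays lay above all others, and iPax7 replicate 2 was the highest of its group. The differences of iPax3 from satellite cells, 4.26 ± 1.1 and 5.77 ± 1.33 by the leading and the second probe, did not pass (adjusted p = 0.178 and 0.131). Those of iPax7 were 1.35 ± 1.1 and 1.56 ± 1.33.

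Between the re-isolated groups, Dlk1 was lower in iPax7 by the estimate of both probes, with differences from iPax3 of -2.91 ± 1.1 and -4.21 ± 1.33, and neither passed (adjusted p = 1 and 0.947, unadjusted p = 0.0265 and 0.0112). Over the alternative settings they ranged from -3.98 to -2.49 and from -5.21 to -3.39, which includes the fits with slide as a block and within the slide that holds all iPax3 arrays and iPax7 replicate 1.

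Meg3, the maternally expressed non-coding RNA next to Dlk1, was present on the array under its older symbol Gtl2, which the RefSeq gene table lists as a synonym. Its 4 probes fall outside the matching of probes by symbol and are given for the domain only. Every array measured all 4 above background. By the brightest, A_52_P391505, the levels were 7.26 ± 0.20 in iPax3, 7.25 ± 0.85 in iPax7 and 6.87 ± 0.71 in satellite cells (SD, n = 3), with overlapping groups. Over the 4 probes, the differences from satellite cells lay between -0.48 and 1.22 for iPax3 and between -2.45 and 0.44 for iPax7, and none passed (lowest adjusted p = 0.406). Dio3, which encodes the deiodinase that inactivates thyroid hormone, read 2.52 on iPax7 replicate 1 and between -3.93 and -0.91 on the other 8 arrays.

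**Figure D3:**
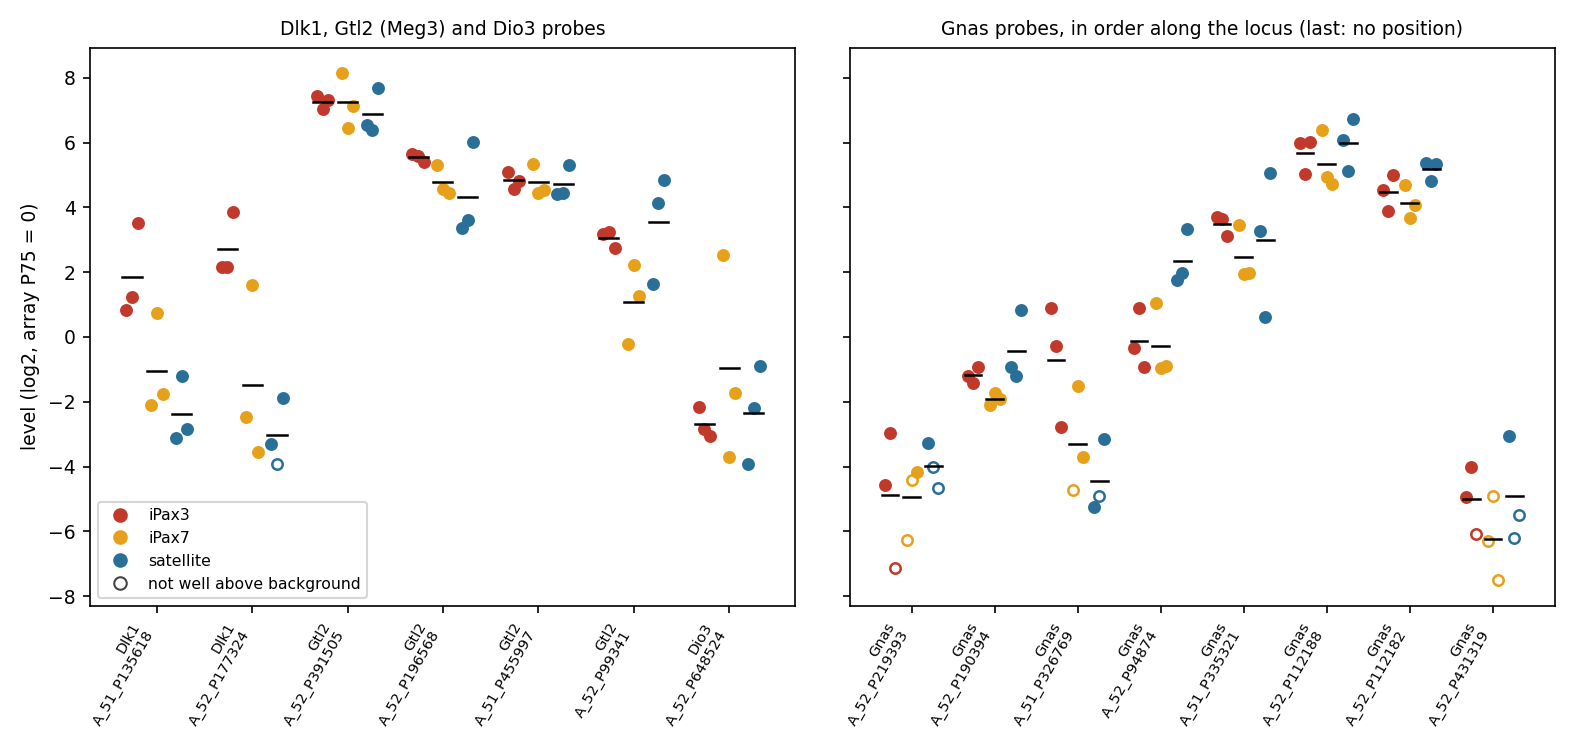
Levels by probe in the Dlk1-Dio3 domain (left) and at Gnas (right); the vertical axis is the log2 signal relative to its array's 75th percentile, each point is an array, open points were not well above background and bars are group means. Both Dlk1 probes place the iPax3 arrays above the iPax7 and satellite arrays, and the 4 Gtl2 (Meg3) probes have overlapping iPax3 and satellite groups.

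Peg3 and its neighbours, a domain that also holds Usp29 and Zim1, had no call. Peg3 encodes a paternally expressed zinc finger protein that has been described in adult muscle stem cells. Its leading probe, A_51_P206037, read 5.29, 4.36 and 4.86 in iPax3, 5.09, 2.76 and 4.55 in iPax7 and 5.60, 5.76 and 6.94 in satellite samples. All satellite arrays lay above all re-isolated arrays. The difference for both groups together was -1.61 ± 0.73 and did not pass (adjusted p = 0.359).

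A second Peg3 probe, A_52_P235861, read between -5.56 and 2.25 on the 6 re-isolated arrays and 3.60, 3.48 and 4.98 in satellite samples, again without overlap, with a difference of -3.98 ± 1.49 (adjusted p = 0.280). The third, A_52_P1131620, which was not well above background on satellite replicates 2 and 3, had a difference of 0.96 ± 1.58. Usp29, a deubiquitinase gene that shares its promoter region with Peg3, had a difference of 0.51 ± 0.83 for iPax3 by its leading probe A_52_P438144 and of -5.05 ± 1.97 by A_51_P257982 (adjusted p = 0.362). By that second probe it read -5.53, -7.14 and -7.07 in iPax3, none well above background, and -6.25, 0.98 and 0.67 in satellite samples, so the groups overlapped through satellite replicate 1. The bound on the group means was at least 12.8-fold lower in iPax3, with at least 5.36-fold and 5.99-fold without satellite replicates 2 or 3 and 65.8-fold without satellite replicate 1. With normexp background correction the difference was -2.14, which is less than the bound.

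Peg3 and Slc22a3 were the only members by leading probe whose 6 re-isolated arrays all lay below the 3 satellite arrays, and none had all 6 above, where 4.35% of all genes lay below and 4.13% above. For iPax3 alone, Dlk1, Mest and Slc22a2 lay above without overlap and Peg3, Ndn, Slc22a3 and Nap1l5 below, beside 8.61% and 10.4% of all genes. For iPax7 alone, Ppp1r9a lay above, and Peg3 and Slc22a3 below, beside 7.65% and 8.86%. The counts, 3 and 4 of 36 for iPax3 and 1 and 2 of 36 for iPax7, are close to or below these shares. Slc22a3 and Slc22a2 passed the filter only through the arrays where they are high, so their lack of overlap is no result.

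At the remaining loci the probes of a gene often disagreed. Of the 17 members with more than 1 tested probe, 8 had probes with differences of opposite sign when both re-isolated groups were set against satellite cells. Grb10, an adaptor that restrains insulin and insulin-like growth factor signalling, is such a gene. The 2 probes that bound its extremes lie far apart in the gene and are shown for that reason, both from the minus strand of mm8 chr11.
Grb10 A_52_P40363: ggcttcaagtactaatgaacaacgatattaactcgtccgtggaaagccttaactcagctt
Grb10 A_51_P187151: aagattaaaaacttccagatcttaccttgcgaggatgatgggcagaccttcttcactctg

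Grb10 by A_52_P40363 (chr11:11870574-11870633) read 1.63, 1.63 and 1.75 in iPax3, 2.35, 2.02 and 2.16 in iPax7 and 1.1, -6.15 and -6.70 in satellite samples. The re-isolated arrays agreed closely and lay above the satellite arrays, of which only replicate 1 was well above background. The differences of 5.59 ± 1.78 for iPax3 and 6.10 ± 1.78 for iPax7 did not pass (adjusted p = 0.266 and 0.236), and without satellite replicate 1 both were called. That fit left no satellite array well above background for this probe. The direction was thereby fixed, and these calls are no support for a difference.

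By A_51_P187151 (chr11:11833580-11834228), its leading probe, Grb10 read 3.97, 2.71 and 3.38 in iPax3, 0.81, 2.38 and 2.30 in iPax7 and 2.10, 2.76 and 3.41 in satellite samples. This probe was well above background on all 9 arrays, and the satellite arrays overlapped both re-isolated groups. The iPax7 arrays lay below the iPax3 arrays, with a difference of -1.53 ± 0.79 (adjusted p = 1). Set against satellite cells, the differences were 0.59 ± 0.79 for iPax3 and -0.93 ± 0.79 for iPax7.

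Gnas, the locus of the stimulatory G protein alpha subunit and of alternative products with parent-specific expression, had 8 tested probes. The leading one, A_52_P112188, read 6.0, 5.04 and 6.01 in iPax3, 6.38, 4.95 and 4.74 in iPax7 and 6.09, 5.11 and 6.75 in satellite samples, which overlapped. A_52_P94874 (mm8, chr2:173971466-173971525) read between -0.96 and 1.04 on the re-isolated arrays and 1.75, 1.99 and 3.34 in satellite samples, without overlap, and its difference of -2.55 ± 0.78 did not pass (adjusted p = 0.202). A_51_P326769 (chr2:173944730-173944789) went the other way in iPax3, by 3.72 ± 1.22 (adjusted p = 0.280). Of the 8 probes, 6 had differences below 0 for iPax3 and 7 for iPax7 against satellite cells, all 8 were lower in iPax7 than in iPax3, and none was called.

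**Figure D4:**
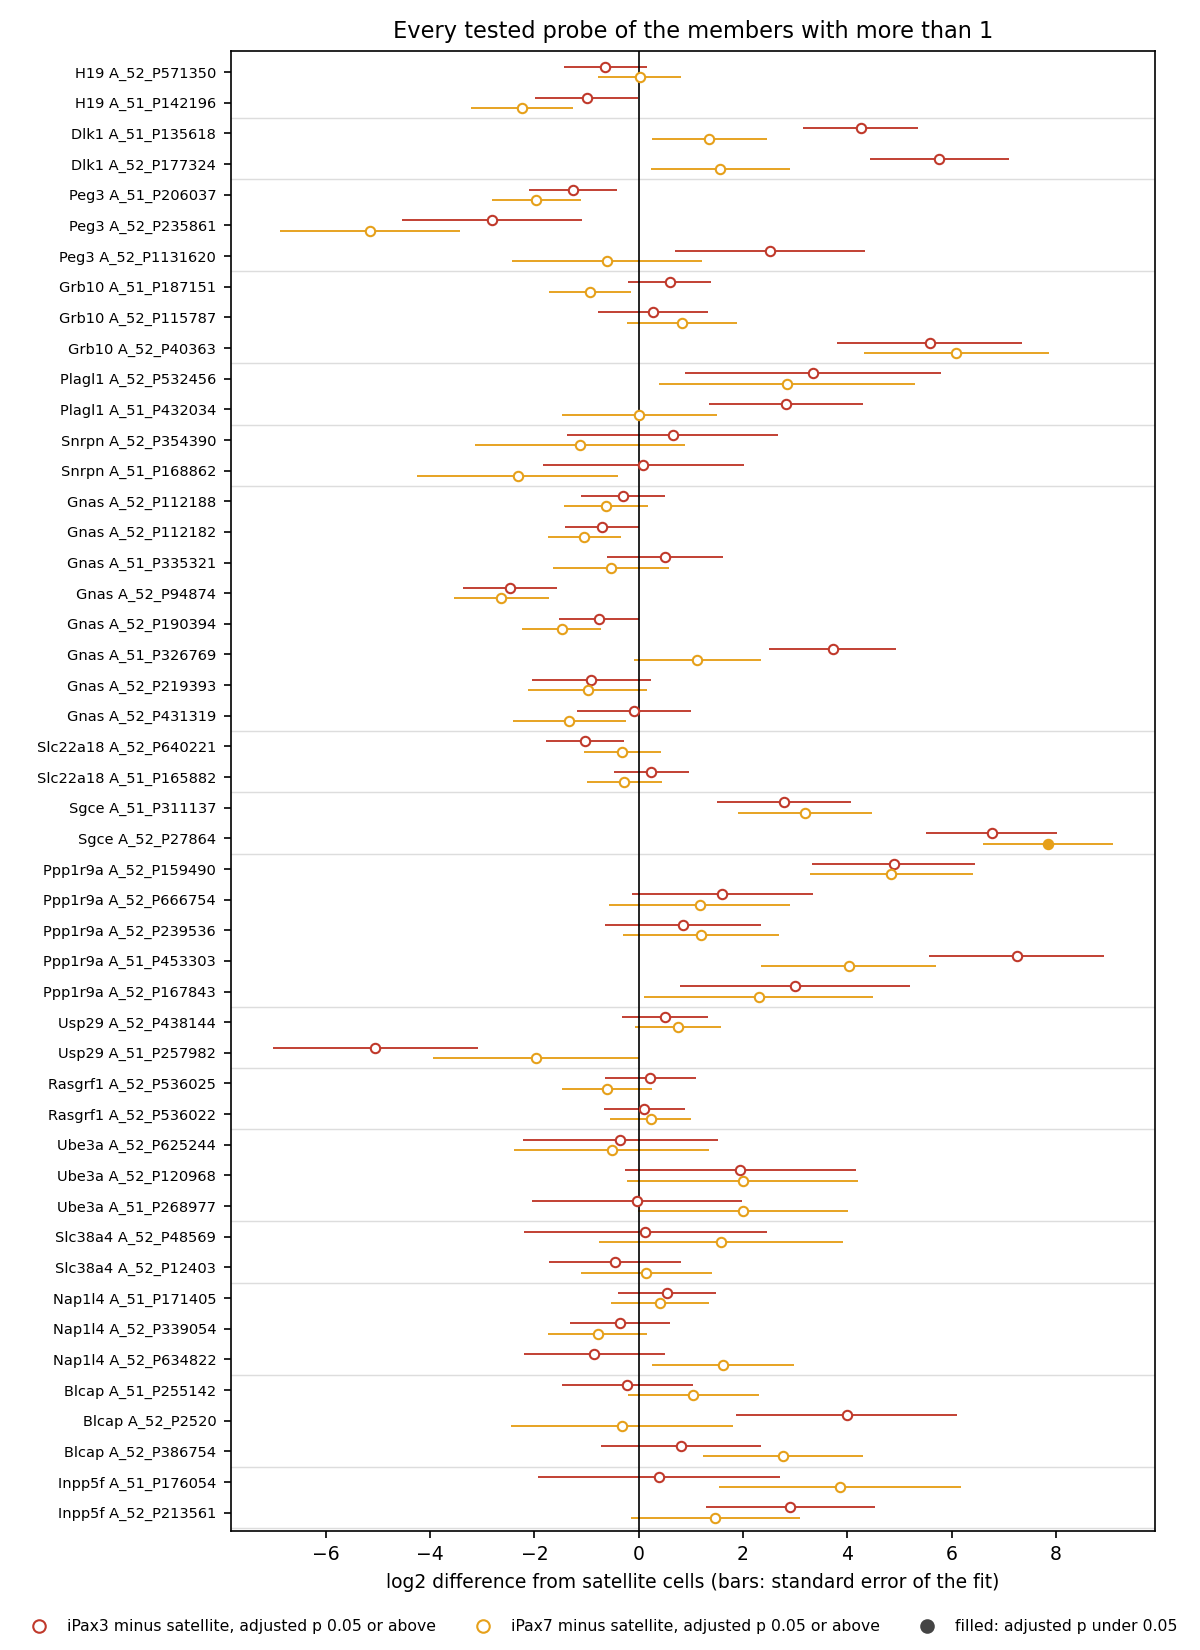
Differences from satellite cells for every tested probe of the 17 members with more than 1; the horizontal axis is the log2 difference, bars are standard errors of the fit, and filled points had an adjusted p under 0.05. The only filled point is the iPax7 difference of Sgce A_52_P27864, 7.85; probes of Grb10, Peg3, Usp29 and Gnas lie on both sides of 0.

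Among the other growth regulators, Ndn, a paternally expressed gene of the Prader-Willi domain whose product necdin restrains the cell cycle, differed by level between the re-isolated groups. It read 0.67, 1.08 and 0.43 in iPax3, 3.79, 2.45 and 2.07 in iPax7 and 1.22, 2.65 and 3.19 in satellite samples. The iPax3 arrays lay below every array of both other groups. The iPax7 difference from iPax3 was 2.05 ± 0.82 (adjusted p = 1, unadjusted p = 0.0344), and between 1.82 and 3.07 over the alternative settings.

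H19, the maternally expressed non-coding RNA downstream of Igf2, had overlapping groups by its leading probe A_52_P571350, with 2.31, 0.31 and 1.13 in iPax3, 2.05, 1.34 and 2.33 in iPax7 and 1.25, 2.45 and 1.97 in satellite samples. Its second probe had a difference of -1.62 ± 0.85 for both groups together (adjusted p = 0.423). Mest, which encodes a hydrolase-like protein, read 2.88, 0.38 and 0.35 in iPax3 against 0.25, -3.38 and -1.57 in satellite samples, with a difference of 2.77 ± 1.25 (adjusted p = 0.422). Plagl1, a zinc finger gene placed upstream of other imprinted genes, read between 2.20 and 4.97 on 8 arrays and -6.25 on satellite replicate 2, where it was not well above background.

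None of the differences of H19, Mest and Plagl1 passed the test. Cd81, a tetraspanin gene of the Kcnq1 domain, was named after its values were seen, since it was called without satellite replicate 1. That fit left no satellite array well above background for its probe, so the call is no support for a difference. Cd81 read between 0.22 and 1.94 on the 6 re-isolated arrays and 1.60, -6.23 and -5.81 in satellite samples. The differences with all arrays, 4.55 ± 1.82 for iPax3 and 4.13 ± 1.82 for iPax7, did not pass (adjusted p = 0.374 and 0.425).

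Both probes of Snrpn, a splicing factor gene of the Prader-Willi domain, were chosen after their values were seen, because their sequences overlap. They overlap on the minus strand of mm8 chr7, at chr7:59866411-59866470 and chr7:59866394-59866453. The shared 43 bases, in capitals, differ at 2 positions.
Snrpn A_51_P168862: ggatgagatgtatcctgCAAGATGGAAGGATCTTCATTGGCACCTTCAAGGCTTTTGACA
Snrpn A_52_P354390: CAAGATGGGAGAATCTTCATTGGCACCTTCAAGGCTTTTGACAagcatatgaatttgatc
Counted from the first shared base, with A_51_P168862 first, the differences are A9G and G12A.

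The Snrpn probes tracked each other array by array, which is no independent check because they overlap. A_51_P168862 read 0.28, -4.78 and 0.20 in iPax3, -6.11, -0.03 and -5.41 in iPax7 and -0.43, -0.47 and -3.67 in satellite samples. A_52_P354390 read 0.46, -5.06 and 0.54, then -4.29, 0.13 and -5.24, and then 0.01, -1.05 and -4.97. Neither was well above background on iPax3 replicate 2 and iPax7 replicates 1 and 3, nor was A_52_P354390 on satellite replicate 3. The low readings thus fell on the same arrays by each probe.

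The remaining tested members had no call and no unadjusted p under 0.05 by their leading probe against satellite cells, apart from Osbpl5, an oxysterol-binding protein gene of the Kcnq1 domain. It differed by 3.19 ± 1.39 for iPax7 (adjusted p = 0.423) and by 2.85 ± 1.2 for both groups together (adjusted p = 0.333). The Kcnq1 domain, with 8 tested members, had a median of -0.41 for iPax3 and for iPax7 and of -0.60 for both groups together against satellite cells, with 3 members above 0 in each. In the Prader-Willi domain 2 of 4 tested members lay above 0 for iPax3 and for iPax7 and 1 of 4 for both groups together, and in the pair Nnat and Blcap the lowest difference was that of Nnat, -3.45 for iPax7.

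Between iPax7 and iPax3, limma called 0 of the 36 members and 0% of all genes. At an unadjusted p under 0.05, Ndn was higher and Dlk1 lower in iPax7, beside 1.6% of all genes higher and 2.19% lower. Ndn lay above, and Dlk1 and Grb10 below, without overlap, beside 4.45% and 4.88% of all genes. The median over the members was -0.15 and that over all genes 0.07. The count of members called stayed at 0 under every alternative run, the fits within the shared slide and with slide as a block among them, while over all genes 2 were called after quantile normalization, 1 when probes of a gene were averaged and 1 when slide was a random block.

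Other imprinted genes were taken from a list of 54 genes outside the set, of which 41 were tested. Of these, 2 were called higher in each comparison with satellite cells, Igf2 and Dcn, and none lower. In the order iPax3, iPax7 and both groups, 0.434%, 0.5% and 0.829% of all genes were called higher. The shares called lower were 0.0789%, 0.0833% and 0.189%. Igf2, the paternally expressed fetal growth factor, read 3.32, 3.16 and 4.22 in iPax3, 3.99, 3.32 and 3.45 in iPax7 and -2.16, -2.09 and -2.36 in satellite samples by A_51_P516826. The re-isolated arrays lay above the satellite arrays by 5.77 ± 0.68 for iPax3 and 5.79 ± 0.68 for iPax7 (adjusted p = 0.0117 and 0.00858). Its leading probe, A_51_P516833, was well above background on only 1 satellite array and differed by 9.58 ± 2.11 and 9.41 ± 2.11, which did not pass (adjusted p = 0.115 and 0.131). Dcn, which encodes the matrix proteoglycan decorin and is imprinted in placenta, differed by 8.59 ± 0.79 and 8.83 ± 0.79 (adjusted p = 0.00447 and 0.00320). Cdkn1c, a cell cycle inhibitor of the Kcnq1 domain, differed by 2.29 ± 0.76 and 3.84 ± 0.76 and did not pass (adjusted p = 0.289 and 0.0876).

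A published network of co-expressed imprinted growth genes, a list of 15, had 13 tested genes, of which 9 are members of the set. For iPax3, Dcn and Igf2 were called higher, and for iPax7 also Sgce, with none lower, beside 0.434% and 0.5% of all genes called higher. The medians were 2.41 and 1.82, with 9 and 10 of 13 genes above 0, where the medians over all genes were -0.18 and -0.15. Of 15 factors that set or keep imprints, such as DNA methyltransferases and KRAB zinc finger proteins, 10 were tested and limma called none in any comparison. At an unadjusted p under 0.05, none was higher in any comparison, while 0 were lower for iPax3 and 1 each for iPax7 and for both groups against satellite cells, and 2 for iPax7 against iPax3, beside 4.93%, 4.96%, 6.42% and 2.19% of all genes. The lowest difference from satellite cells was that of Trim28, the corepressor of KRAB zinc finger proteins, at -3.51 ± 1.63 for iPax3 (adjusted p = 0.436).

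The fibroblast and satellite cell markers moved in the comparisons with satellite cells. No endothelial, leukocyte, pericyte and smooth muscle or mature fibre marker was called, and their summed signals overlapped between re-isolated and satellite arrays. All 13 fibro-adipogenic and fibroblast markers had differences above 0 in both comparisons, 6 of them called in each, and Dcn is also on this list. Of all genes, 45.32% lay above 0 for iPax3 and 45.98% for iPax7, and 0.434% and 0.5% were called higher. The summed signal of the 13 markers relative to the 75th percentile was between 478 and 913 on iPax3 arrays and between 617 and 1154 on iPax7 arrays. On satellite arrays it was between 51.3 and 88.7. The 11 tested satellite cell markers summed to between 43.6 and 56.7, between 37.7 and 77.4 and between 181 and 277. Of them 1, Chrdl2, was called lower, beside 0.0789% of all genes for iPax3 and 0.0833% for iPax7. At least 11 of the 13 fibroblast markers and 9 of the 11 satellite cell markers were well above background on every array. Pericyte and smooth muscle markers summed to between 43.9 and 61.6 in iPax3, 43.9 and 104 in iPax7 and 47.8 and 66.3 in satellite samples, and mature fibre genes to between 10.53 and 27.8, 9.76 and 35.6 and 16.0 and 36.6. Endothelial markers summed to between 2.20 and 5.40 in iPax3, 7.11 and 54.8 in iPax7 and 5.28 and 16.3 in satellite samples, and leukocyte markers to between 4.98 and 37.7, 7.97 and 65.1 and 3.99 and 16.4. The part of these cell types in the differences of Sgce, Slc22a3, Dlk1 and Igf2 was not tested.

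CG pairs were counted at the starts of the members. In the RefSeq windows of 300 bases (250 before the start and 50 after, GRCm38.p6), 33 of the members had 49 promoters, with a median of 15 CG, against a median of 7 over 32851 promoters. At least 10 CG were found in 61.2% of the member promoters and in 43.5% of all. The members ranged from 1 to 48 CG, with 5 at Slc22a3 and between 2 and 7 at the 4 listed starts of Snrpn. CG reads the same on both strands, genes with several starts count more than once, and methylation was not measured here.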

How the data were processed

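RNA from 9 sorted cell samples was hybridised to whole mouse genome arrays of Agilent, in a single colour. Per the file headers, the intensity values were made with Feature Extraction 10.5.1.1 and the deposited processed signal is background-subtracted and detrended; probe positions are on mm8. The authors' deposited value table of log2 values, for which the submitters' processing notes name limma without a version, served as an alternative. Each array has 45018 spots, and between 57.2% and 79.9% of its spots were well above background by the software's flag; the number of arrays limits the precision.

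Groups came from the sample titles. The log2 processed signal minus each array's 75th percentile was used, without control and outlier spots, with spots of a probe averaged. Probes well above background on at least 3 of 9 arrays, with at least 7 values and 2 per group, were tested in limma 3.58.1 (R 4.3.3; lmFit, eBayes) in a single fit of 3 group means. Its degrees of freedom were 6 residual and 3.18 prior. It was tested on simulated data. Replicate numbers did not pair the samples: deviations of same-numbered arrays correlated between -0.14 and 0.05.

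Members and lists were chosen with earlier results of these data known. Each array's values are given for members with a call, or whose leading probe differed by at least 3 log2 units between groups that did not overlap. At most 8 others were named because they belong to the imprinted gene network or their probes disagree. Cd81, Snrpn, Osbpl5, Dio3, Nnat, Nap1l5, Peg10 and Asb4 were described after their values were seen. Gene symbols are those of the files. Alternatives covered background correction, scaling, filter, probe summary, blocks, variance model and each array left out.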

Additional observations from a re-analysis of the deposited data

How the results depend on the processing

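The counts of called members, 1 for iPax3, 2 for iPax7 and 2 for both groups against satellite cells, and 0 for iPax7 against iPax3, moved with several settings, and the cause was not tested unless given here. In the order iPax3, iPax7 and both groups, normexp background correction gave 0, 1 and 2, quantile normalization 2, 2 and 2, the authors' deposited values (Sgce alone; Slc22a3 was not tested there) 1, 1 and 1, 1 probe a gene 1, 1 and 1, and the mean of a gene's probes 1, 1 and 2. Only probes well above background on all 9 arrays gave 0, 0 and 0, since the called probes are then not tested. Slide as a random block (correlation 0.394) gave 0, 0 and 1, scan day as a random block 0, 0 and 0, and a fit on the compared groups only 0 and 0. With the replicate number as a block, which does not pair these samples, the counts were 0, 1 and 2. Other scaling, no filter, and trend with robust variance kept the counts. The 2 fits of iPax7 against iPax3 that take slide into account were chosen after seeing the data and called 0 members. Leaving out 1 array gave between 0 and 6, between 0 and 5 and between 1 and 5 members, highest without satellite replicate 1. Scaling on probes above background on all 9 arrays moved the median over all probes from -0.03 to 0.35 for iPax3 and from -0.06 to 0.17 for iPax7.

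Of the single probes, some differences changed sign, all of them uncalled. Grb10 A_51_P187151 for both groups was 0.27 with quantile normalization, 0.14 with the other scaling, 0.21 in the authors' deposited table and 2.08 as the mean of the gene's probes, which adds probes that disagree, and between -0.50 and 0.16 with 1 array left out. Gnas A_52_P112188 for both groups was 0.092 with quantile normalization and 0.041 in the authors' deposited table. Usp29 A_52_P438144 for iPax3 was -2.27 as the mean of the gene's probes, and between -0.18 and 1.05 with 1 array left out. Plagl1 A_52_P532456 for both groups lay between -0.41 and 5.21 with 1 array left out, the lowest without satellite replicate 2. Detection limits many of these values: 20 and 23 of the 67 member probes were not well above background on satellite replicates 3 and 2.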
